A study of Mus musculus with 2 samples.

Results

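Mir143, Mir145a and Mir145b are the 3 miRNA genes of mouse that make the miRNAs miR-143 and miR-145, found by symbol among the 2202 miRNA genes in the deposited counts. The counts come from small RNA sequencing of adrenal glands of female mice aged 14 days of the strain B6CASTF1/J, a cross of C57BL/6J with CAST/EiJ. The series is 1 group of 2 libraries labelled as biological replicates, with no treatment named in the labels, so no condition can be compared. By its label, replicate 1 came from 3 females, whereas for replicate 2 only 1 numbered female is named, and the donor record is common to both. Whether the libraries came from separate animals is therefore unclear. Differences between them are a description of 2 libraries, with no p-value. A gene counted as detected if both libraries had at least 10 counts, which held for 358 genes in all, and for Mir143 and Mir145a but not Mir145b.

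MicroRNAs are cut from hairpins in longer transcripts and repress messenger RNAs through a short stretch near their 5′ end, the seed. Mir143 and Mir145a are known as a pair made from 1 primary transcript, abundant in vascular and visceral smooth muscle and in pericytes. There they depend on serum response factor and myocardin, and they favour the contractile over the proliferative state. In the adrenal gland such cells line the vessels that run among the steroid-producing cells of the cortex and the chromaffin cells of the medulla.

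All 3 genes lie on the minus strand of chromosome 18, in GENCODE M21 on build mm10. Mir143 (ENSMUSG00000065445.3) spans 61649196 to 61649258 and Mir145a (ENSMUSG00000065592.2) spans 61647825 to 61647894, so Mir143 comes first in the direction of transcription and 1301 bases separate the hairpins. Neither overlaps another annotated gene. Upstream, Carmn, a long noncoding RNA of the same strand known as the host transcript of the pair, ends 366 bases before Mir143. Downstream lies Bvht, a long noncoding RNA of the opposite strand, 352 bases past Mir145a. Mir145b (ENSMUSG00000098366.1) stands apart from the pair, at 69022199 to 69022273, also outside any other gene. The nearest other miRNA genes to the pair are Gm25301, 249.9 kb away beside Mir378a, and Mir122, 3.6 Mb away on the other side.

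**Figure D1:**
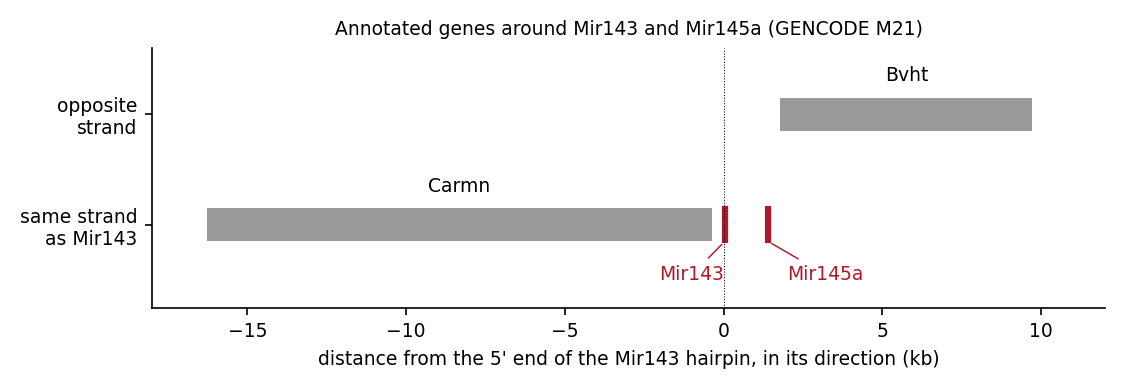
Map of the annotated genes around Mir143 and Mir145a, with the distance in kb from the 5′ end of the Mir143 hairpin, in its direction of transcription, on the x axis and the strand on the y axis. Red bars are the miRNA genes and grey bars the long noncoding RNA genes: the pair stands between the end of Carmn, 366 bases before Mir143, and the end of Bvht, 352 bases past Mir145a.

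Mir143 was among the most abundant miRNA genes of the gland. It had 172486 counts in replicate 1 and 155135 in replicate 2, which is 45426 and 30816 CPM (counts scaled to a common total over miRNA genes). It was thus high in both libraries, with rank 5 in replicate 1 and rank 7 in replicate 2. Its share of miRNA counts was 4.54% (Wilson 95% interval 4.52 to 4.56) in replicate 1 and 3.08% (3.07 to 3.10) in replicate 2, with a mean of 3.81% ± 1.03 (SD, n = 2). On the mean of the libraries, 98.0% of detected genes were lower. In bulk tissue, fewer cells of a type and less RNA per cell cannot be told apart, for this and every other value here.

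Mir145a was far lower than its partner. It had 3890 counts in replicate 1 and 9245 in replicate 2, or 1024 and 1836 CPM. Here replicate 2 was the higher library, the reverse of Mir143. Its share was 0.102% (Wilson 95% interval 0.0993 to 0.106) in replicate 1 and 0.184% (0.180 to 0.187) in replicate 2, with a mean of 0.143% ± 0.0574 (SD, n = 2). It ranked 80 in replicate 1 and 51 in replicate 2, and 82.7% of detected genes had a lower mean.

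Mir145b was at the limit of detection. A single count in each library stood for 0.263 CPM in replicate 1 and 0.199 CPM in replicate 2, below the 3 counts that a count of 0 allows (0.790 and 0.596 CPM), so no fold is given for it. Of all annotated genes, 18 had exactly 1 count in each library and 1411 had none in either. The counting left out reads that map to several places, which were 28.0% of all reads in replicate 1 and 25.0% in replicate 2. No member has a hairpin identical to that of another annotated miRNA gene, but shorter stretches that Mir145a and Mir145b may share were not examined. The low count therefore does not show that no miRNA of Mir145b was present. The opposite-strand counts of all 3 genes were 0 in both libraries, and counting without regard to strand gave them the same counts.

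**Figure D2:**
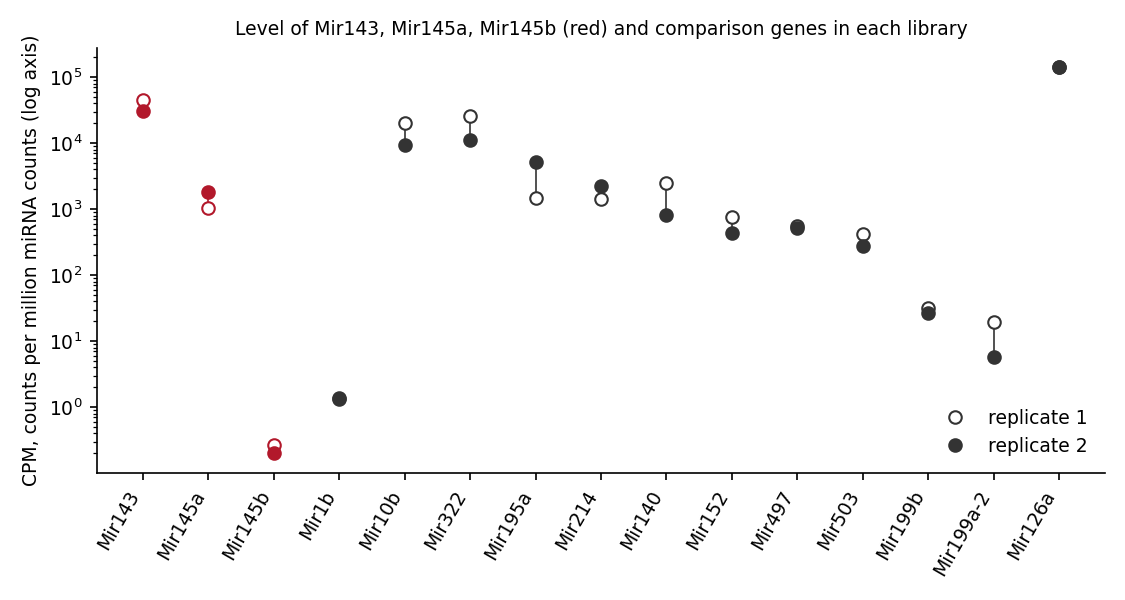
CPM on a log axis for Mir143, Mir145a and Mir145b in red and comparison genes in black, with an open circle for replicate 1, a filled circle for replicate 2 and a line joining them. Mir143 stands at 45426 and 30816 CPM, Mir145a at 1024 and 1836 CPM, and Mir145b below 1 CPM in both libraries.

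Within each library, Mir143 exceeded Mir145a by more than an order of magnitude, but not by the same factor. The count ratio of Mir143 to Mir145a was 44.3 in replicate 1 (exact 95% counting interval 43.0 to 45.8) and 16.8 in replicate 2 (16.4 to 17.1). Mir145a thus made up 2.21% of the pair's counts in replicate 1 and 5.62% in replicate 2. On the log2 scale the ratio was 5.47 and 4.07, with a mean of 4.77 ± 0.99 (SD, n = 2). A ratio within a library needs no scaling between libraries. The ratio was 2.64-fold lower in replicate 2 (95% counting interval 2.54 to 2.75), a log2 change of -1.40, far beyond the counting error of independent reads. These counts are per hairpin gene, so both arms of a hairpin are summed. The intervals cover counting error only, and they treat each read as independent. No molecular identifiers are named in the labels or files, so copies of 1 molecule cannot be told apart and the intervals may be too narrow.

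Between the libraries the pair split, with Mir143 nearly level and Mir145a higher in replicate 2. After TMM scaling, which sets most genes level, the log2 ratio of replicate 2 over replicate 1 was -0.13 for Mir143 (95% counting interval -0.14 to -0.12). It was 1.27 for Mir145a (1.22 to 1.33), a 2.41-fold difference. Of the 358 detected genes, 9.22% were at least 2-fold higher in replicate 2 and 8.66% at least 2-fold lower, 33 against 31 genes. The counting interval left out 0 for 69.0% of them, so a difference beyond the counting error of independent reads was the rule for these libraries. Mir145a was 1 of those 33 genes, and 93.9% of detected genes had a lower log2 ratio. Mir143 was within 2-fold and near the middle, with 45.3% of detected genes below it.

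The size of these differences depended on the scaling, while TMM, DESeq2 size factors and library totals all put Mir143 lower and Mir145a higher in replicate 2. With library totals in place of TMM, the log2 ratio was -0.56 for Mir143 and 0.84 for Mir145a, which was then within 2-fold. That scaling moved the median of all detected genes from -0.06 to -0.49 and the genes past 2-fold to 19 higher and 79 lower. All other log2 ratios between libraries are given relative to the TMM scaling. Mir122, the main miRNA of hepatocytes, took 0.290% of counts in replicate 1 and 21.5% in replicate 2. With Mir122 left out of the totals, the share of Mir143 was 4.24% on the mean of the libraries.

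**Figure D3:**
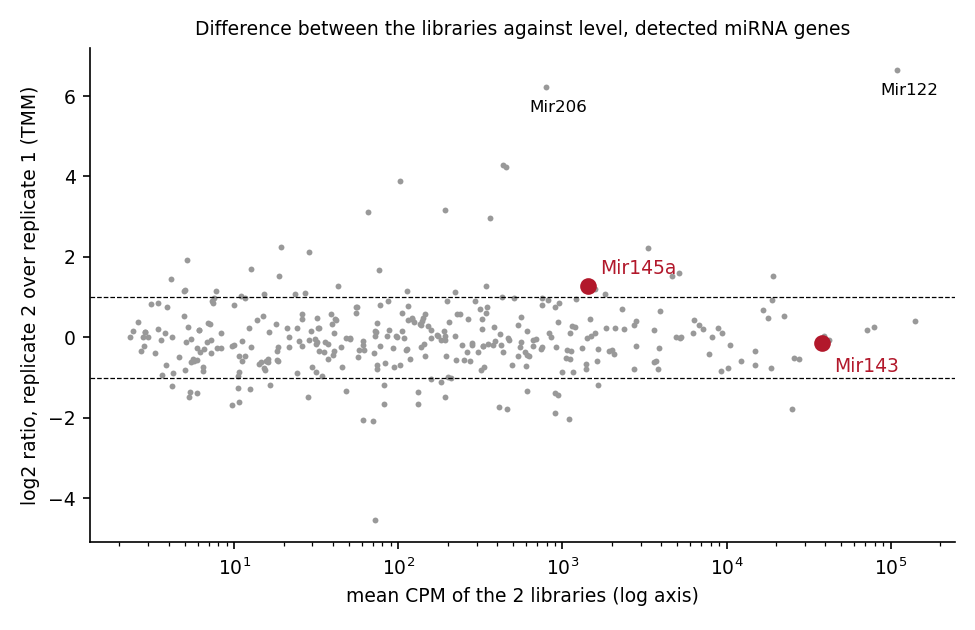
The log2 ratio of replicate 2 over replicate 1 after TMM scaling (y axis) against the mean CPM of the libraries (x axis, log scale), with 1 point for each of the 358 detected genes and dashed lines at a 2-fold difference. Mir143 lies at -0.13, close to level, and Mir145a at 1.27, above the upper line.

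Neighbouring miRNA genes gave a background for the pair. Detected genes next to each other on 1 strand, with starts under 10 kb apart, formed 113 other pairs. Their genes differed in level by a median of 4.60-fold, against 26.6-fold for Mir143 over Mir145a on mean CPM. Of these pairs, 25 (22.1%) were at least as unequal. Of the 81 other pairs with at least 100 counts for each gene in each library, 11 (13.6%) were. With neighbours formed anew from genes with at least 100 counts in each library the share was 12.8%, and formed anew without numbered gene copies, from which multimapping reads may be missing, it was 12.2%. Among the 30 other pairs with at least 1000 counts for each gene in each library, a limit chosen after the data had been seen, 4 (13.3%) were at least as unequal. The first gene in the direction of transcription, as Mir143 is, was the higher one in 53.1% of the other pairs. Pairs of 1 cluster share genes, so they are not independent.

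Just more unequal than Mir143 and Mir145a were Mir23a over Mir27a at 27.8-fold, Mir665 over Mir3070a at 26.8-fold and Mir181a-1 over Mir181b-1 at 26.7-fold. Just less unequal were Mir487b over Mir539 at 26.4-fold, Mir341 over Mir1188 at 23.3-fold and Mir100 over Mirlet7a-2 at 23.2-fold. In each of these 6 pairs, as in the smooth muscle pair, the first gene was the higher one. Some of the ratios rest on few counts, 16 and 15 in replicates 1 and 2 for Mir3070a. Mir181b-1 had 28 and 35, and Mir1188 had 70 and 87. Mir181a-1, Mir181b-1 and Mirlet7a-2 are numbered copies, from which multimapping reads may be missing. Mir23a had 57590 counts in replicate 1 and 91019 in replicate 2, and Mir27a had 3112 and 1887. In that pair the gap widened in replicate 2, by 1.38 on the log2 scale, where that between Mir143 and Mir145a narrowed.

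The change of ratio between the libraries was also not rare among neighbours. It was at least 2-fold in 35.4% of the other pairs, with a median absolute log2 change of 0.68. A change at least as large as that of Mir143 to Mir145a was seen in 20 of 113 (17.7%), and in 2 of the 30 with at least 1000 counts throughout. In 42.5% of the other pairs, as in this one, the genes lay on opposite sides of 0 after TMM scaling. Of the 3 pairs within the list of pericyte and stromal genes described further on, Mir322 and Mir503 changed less, at -0.59, and Mir199a-2 and Mir214 changed more, at -2.40, with counts as low as 29. Mir497 and Mir195a also changed more. Mir497 had 2116 and 2573 counts in replicates 1 and 2, and Mir195a 5574 and 25812, a log2 change of -1.93.

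**Figure D4:**
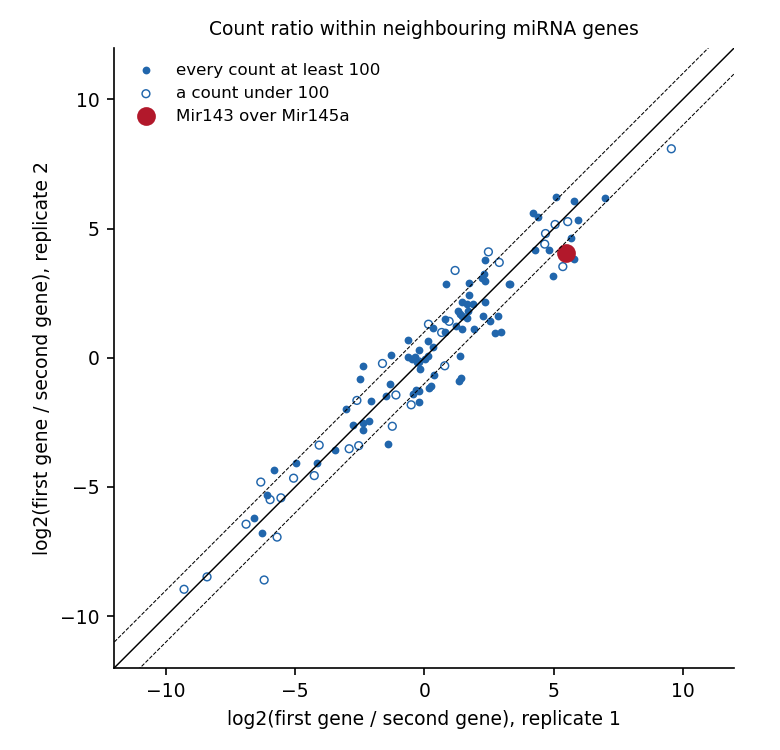
The log2 count ratio of the first over the second gene of each neighbouring pair, in the direction of transcription, in replicate 1 (x axis) and replicate 2 (y axis). The solid line marks equal ratios and the dashed lines a 2-fold change. Filled blue points are pairs with every count at least 100, open ones the others, and the red point is Mir143 over Mir145a, at 5.47 and 4.07, below the lower dashed line.

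The mature sequences of Mir23a with Mir27a, a similarly unequal pair with high counts, and of Mir497 with Mir195a, a stromal pair, show that neighbours can carry different or equal seeds. They are those of RefSeq on GRCm38.p6, with the seed (bases 2 to 8) in capitals, and the arm was picked by name, not by these counts.
miR-23a-3p: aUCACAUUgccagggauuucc
miR-27a-3p: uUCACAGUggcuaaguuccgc
miR-497a-5p: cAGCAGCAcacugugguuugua
miR-195a-5p: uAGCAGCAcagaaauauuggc

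Mir23a and Mir27a lie on chromosome 8, with the mature miRNAs at 84208563 to 84208583 and 84208727 to 84208747 on the plus strand, and their seeds differ. Mir497 and Mir195a lie on chromosome 11, with the mature miRNAs at 70234730 to 70234751 and 70235062 to 70235082 on the plus strand, and share 1 seed.

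Of the 9 genes listed for contractile smooth muscle, which include the 3 members, only Mir143 and Mir145a were detected. Beside Mir145b, the other 6 are the Mir1 and Mir133 genes, which act in cardiac and skeletal as well as smooth muscle. Together they had 5 counts in replicate 1 and 14 in replicate 2. Mir133a-1, Mir133a-2 and Mir1a-1 had 0 in both, Mir1a-2 had 0 and 4, Mir133b had 0 and 3, and Mir1b, which overlaps Mir1a-2 on the opposite strand, had 5 and 7. Several are numbered copies whose reads may have been left out, so these counts do not show absence.

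Genes linked to the switch of smooth muscle cells from the contractile to the proliferative state were all detected, 16 of 16, at 6.83% of counts in replicate 1 and 3.77% in replicate 2. On balance the lower share in replicate 2 came from Mir21a, and the other 15 genes held 2.69% and 2.88%. Of those 15, Mir23b alone held 1.56% and 2.21%, so the rest of them together also held less in replicate 2. Over the whole list, 7 log2 ratios were positive and 9 negative. In replicate 2, 5 of the 16 were at least 2-fold lower, 0 at least 2-fold higher and 11 within 2-fold, where 8.66% of all detected genes were lower and 9.22% higher. The list had a median log2 ratio of -0.11 against -0.06 over all detected genes. Mir21a, induced in injured vessels and many other stress settings, led the list at 41449 CPM in replicate 1 and 8901 CPM in replicate 2. It was close to Mir143 in replicate 1 and well below it in replicate 2. The X-linked pair Mir221 and Mir222, which promote proliferation of smooth muscle cells, stood lower in replicate 2 as well. Mir221 had 3557 and 1380 counts and Mir222 had 808 and 253, log2 ratios of -1.34 and -1.65. Mir31 followed at -1.38 and Mir26a-1, a gene with a second copy, at -4.54.

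The other 11 genes of that list were within 2-fold, and all of them lay below Mir143. The highest were Mir23b at 18812 ± 4609 CPM and Mir27b at 3853 ± 1279 CPM (SD, n = 2), with log2 ratios of 0.93 and -0.26. Mir29a and Mir146 stood near Mir145a, at 1411 ± 311 and 1194 ± 95.4 CPM (SD, n = 2), with log2 ratios of -0.02 and 0.27. The lower ones had log2 ratios of 0.57 (Mir24-1), 0.40 (Mir24-2), -0.39 (Mir26a-2), 0.03 (Mir155), 0.22 (Mir204), 0.43 (Mir29b-1) and -0.20 (Mir29c). All 11 ratios were below the 1.27 of Mir145a, which follows from their being within 2-fold.

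Genes of pericytes and stromal cells were detected for 10 of 11, at 5.36% of counts in replicate 1 and 3.02% in replicate 2. Of these, 2 were at least 2-fold higher in replicate 2, 2 at least 2-fold lower and 6 within 2-fold, with a median log2 ratio of -0.27. Over all detected genes, 9.22% were higher and 8.66% lower, with a median of -0.06. With library totals the split was 1 higher, 4 lower and 5 within 2-fold, against 5.31% higher and 22.1% lower over all detected genes, as Mir214 came within 2-fold and Mir10b and Mir322 passed it. Mir214, a gene of mesenchymal cells, had 5372 counts in replicate 1 and 11240 in replicate 2, a log2 ratio of 1.09. Its level was close to that of Mir145a in both libraries, with a count ratio of Mir145a to Mir214 of 0.724 and 0.823. Mir195a was higher too, at 2.23. Mir140, of cartilage and stroma, had 9446 and 4071 counts, a log2 ratio of -1.19, so that it was above Mir145a in replicate 1 and below it in replicate 2. Mir199a-2, with 73 and 29 counts, stood at -1.29.

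Among the 6 stromal genes within 2-fold, Mir10b and Mir322 were nearest to Mir143 in level. Mir143 exceeded Mir10b 2.21-fold in replicate 1 and 3.26-fold in replicate 2. The log2 ratios between libraries were -0.69 for Mir10b, -0.76 for Mir322, -0.36 for Mir152, -0.17 for Mir503, 0.30 for Mir497 and 0.17 for Mir199b. By log2 ratio, genes of this list thus lay on both sides of Mir143, and only Mir195a lay above Mir145a. In level, all of them lay below Mir143. The undetected gene was Mir199a-1, with 3 and 0 counts. Mir199a-1 and Mir199a-2 are numbered copies whose reads may have been left out, so their counts do not show a low level.

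Against Mir126a, a gene of endothelium, the other main cell type of the vessel wall, the pair also split. Mir126a, the endothelial miRNA gene inside Egfl7, had 540202 and 707963 counts in replicates 1 and 2. The count ratio of Mir143 to Mir126a was 0.319 in replicate 1 and 0.219 in replicate 2. That of Mir145a to Mir126a was 0.00720 and 0.0131, so that Mir145a gained on the endothelial gene where Mir143 lost.

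Some markers of other tissues and of blood cells also differed between the libraries, while most genes of the blood cell lists were within 2-fold. The skeletal muscle list, of which 2 of 9 genes were detected and 3 had 0 counts in both libraries, held 0.00313% of counts in replicate 1 and 0.157% in replicate 2, nearly all from Mir206 with 106 and 7815 counts. The liver list, Mir122 alone, had 10996 and 1080041 counts. Leukocyte genes, 4 of 4 detected, held 0.216% and 0.107%. The difference was that of Mir142, and the other 3 held 0.0686% and 0.0667%, with log2 ratios of 0.61 for Mir150, 0.43 for Mir223 and 0.03 for Mir155. Erythroid genes, 3 of 3 detected, held 0.224% and 0.0560%, mostly from Mir451a with 7059 and 1703 counts. The log2 ratio was -2.03 for Mir451a, while Mir144 at -0.37 and Mir486 at -0.12 were within 2-fold. The part of these cells in the higher level of Mir145a in replicate 2 was not tested. No miRNA gene defines the adrenal gland by itself. Of the steroidogenic list 10 of 10 genes were detected, at 4.92% and 1.93% of counts. It shares Mir21a with the list on the smooth muscle switch, and its other 9 genes held 0.775% and 1.04%. Of these 9, Mir125a alone held 0.294% and 0.631%. After TMM scaling, 2 of the 10 (Mir125a at 1.53 and Mir383 at 2.11) were at least 2-fold higher in replicate 2. Mir21a, at -1.79, was the 1 gene at least 2-fold lower, and 7 were within 2-fold, where 9.22% of all detected genes were higher and 8.66% lower. The median log2 ratio of this list was 0.12. Of the neuroendocrine list for the medulla 7 of 7 genes were detected, at 3.99% and 2.13%, mostly from Mir375 at 3.38% and 1.76%. After TMM scaling, 1 of the 7 (Mir183, at 1.14) was at least 2-fold higher, 0 at least 2-fold lower and 6 within 2-fold. Over all detected genes, 9.22% were higher and 8.66% lower. The list's median log2 ratio was -0.47.

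The genes nearest in level to Mir143 and Mir145a were found by the distance over log2 CPM in both libraries, over detected genes whose counts averaged 100 or more. For Mir143 they were Mirlet7b at a distance of 0.129, Mirlet7i at 0.220, Mir10a at 0.789, Mir375 at 0.913 and Mir26b at 1.14. Mirlet7b had 44301 and 33584 CPM in replicates 1 and 2, with a mean of 38943 ± 7578 CPM, and Mir143 a mean of 38121 ± 10331 CPM (SD, n = 2). These means do not differ beyond their spread, and the libraries order the genes differently. For Mir145a the nearest were Mir423 at 0.230, Mir92-1 at 0.375, Mir214 at 0.544, Mir455 at 0.589 and Mir146 at 0.767. Mir423 had 4446 counts in replicate 1 and 10089 in replicate 2, a log2 ratio of 1.20, close to that of Mir145a. With 2 libraries, likeness here means only a similar level in each.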

How the data were processed

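Small RNA libraries from adrenal gland of 14-day-old female mice were analysed, 1 group of 2 replicates numbered by the labels. For each library the authors deposited a table of raw counts per miRNA gene, not normalized. A text file deposited with each table names mm10 as the build and GENCODE M21 as the annotation. The aligner, the counter and trimming are not stated in the sources used here. Each table has 3 count columns without a header. Their meaning was taken from the values, and the strand column with more counts on miRNA genes was used. Of 10720796 reads in replicate 1 and 11190481 in replicate 2, 3797107 and 5034257 were counted on miRNA genes, and the summary lines for other reads stayed out of the totals. Counts of the libraries differed beyond the sampling noise of independent reads (chi-square statistic 1230149.1 over 423 genes).

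CPM, shares with Wilson 95% intervals, and log2 ratios with a prior count of 0.5 and exact Clopper-Pearson counting intervals were computed. TMM factors came from edgeR 4.0.16 (1.16 and 0.862) and alternative size factors from DESeq2 1.42.0, both over genes with at least 10 counts in each library. The interval of the pair's change is that of the conditional odds ratio in scipy 1.17.1. The calculations were tested on simulated data. The members, lists, neighbours and alternatives were chosen with earlier results of these data known. Genes named are the members, the 5 genes nearest in level to each of Mir143 and Mir145a, the detected genes of the muscle, phenotype and stromal lists, and the 3 neighbour pairs on either side in inequality. Mir497 with Mir195a, and counts of undetected list genes, were singled out after their values were seen. Scripts ran in Python 3.11.15 (pandas 2.3.3, numpy 2.4.6, matplotlib 3.10.9) and R 4.3.3.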

Additional observations from a re-analysis of the deposited data

How the results depend on the processing

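Of 46 alternatives over 9 results, 30 left the value within its spread or counting interval and 16 moved it, with no change of sign. For the shares of miRNA counts and the log2 of Mir143 over Mir145a, the spread was the SD of the same 2 libraries. Leaving 1 library out could not pass that spread, so those alternatives, which are among the 30, were no test. Only the log2 values could change sign. In the unstranded counts, whose totals are smaller, the share of Mir143 was 5.04% and that of Mir145b 3.05e-05%. With all reads as the denominator the shares of Mir143, Mir145a and Mir145b were 1.50%, 0.0595% and 9.13e-06%. With each replicate left out in turn, the share ranged from 3.08% to 4.54% for Mir143, from 0.102% to 0.184% for Mir145a and from 1.99e-05% to 2.63e-05% for Mir145b, the log2 of Mir143 over Mir145a from 4.07 to 5.47, and the pairs at least as unequal from 16.8% to 26.6%. The log2 ratio between libraries was -0.10 for Mir143 in unstranded counts, -0.07 with DESeq2 size factors and -0.56 with library totals, and for Mir145a 1.33 with DESeq2 size factors and 0.84 with library totals. Genes past 2-fold numbered 64, and 98 with library totals, 155 of 588 with a minimum of 1 count and 37 of 246 with a minimum of 100, where fewer genes were tested. The pairs at least as unequal made up 12.8% with neighbours formed anew at a minimum of 100 counts, 12.2% formed anew without numbered copies and 13.3% with 1000 counts per gene. No paired analysis was possible because the series has only 1 group. Of the members, depth limits Mir145b, whose single counts lie under the limit that a count of 0 allows.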
